A study of Mus musculus with 6 samples.

Results

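The 8 genes described here, Msln, Upk3b, Upk1b, Wt1, Lrrn4, Gpm6a, Bnc1 and Muc16, mark the mesothelium, the sheet of flat epithelial cells that covers the surface of visceral fat. They were chosen by name as mesothelial genes, without keratins, which also mark other epithelia. All 8 were found among the 21829 genes measured, and all 8 passed the minimum set for testing, 1 FPKM on average over the libraries (FPKM scales fragments to transcript length and to library depth). RNA came from epididymal white adipose tissue, the fat pad beside the testis, of 20-week-old male mice of strain C57BL/6J, fed a normal diet. Of 6 libraries, 3 were labelled wild type (WT) and 3 ZFP251 KO (KO), and the design text names the wild types as littermates. The labels give no allele, and they do not say whether the knockout covers the whole body or whether each library is 1 mouse, so the spread behind each p-value may be technical in part.

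The mesothelium of the abdominal cavity secretes lubricant, makes retinoic acid and carries a set of surface proteins that few other cells of fat make. Mesothelin, the product of Msln, is a lipid-anchored surface glycoprotein that binds the membrane mucin encoded by Muc16, known as CA125. Uroplakins, named after the plaques of the bladder lining, are also made by mesothelium. Wt1 encodes the Wilms tumour zinc finger transcription factor, which marks the mesothelium of visceral fat and progenitor cells beneath it and is absent from subcutaneous fat.

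The targeted gene was measured first, as a check of the labels. Zfp251 ran from 5.86 to 6.48 FPKM in the 3 KO libraries and from 2.95 to 3.73 FPKM in the 3 WT libraries. It was thus higher in the libraries labelled KO, by 0.72 on the log2 scale, without overlap and against the label. The limma adjusted p of 0.223 did not pass 0.05, but it equalled the smallest adjusted p of all tested genes. The FPKM of a whole gene cannot tell which of its exons gave reads. KO below stands for the libraries labelled so. Genes of other epithelia and of male germ cells separated libraries within a group. Epcam, an epithelial adhesion gene that mesothelium lacks, ran from 14.2 to 34.3 FPKM in the KO libraries and WT 1 and was at 0.199 and 0.191 FPKM in WT 2 and WT 3. WT 3 also differed by transcript length: its median deviation on the log2 scale was 0.56 for 559 genes under 1000 nt, where the other 5 libraries lay between -0.17 and -0.03.

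By root mean square distance between log2(FPKM + 1) deviations over the libraries, the uroplakin partners were the closest pair of the set, at 0.12. In FPKM, the ratio of Upk3b to Bnc1, from 16.3 in KO 3 to 20.2 in KO 2, was about as steady as their ratio, given below. Upk3b encodes a membrane-spanning uroplakin and had the highest level of the 8 genes, with 20.1, 39.1 and 16.9 FPKM in WT libraries 1, 2 and 3 and 26.5, 10.9 and 21.3 FPKM in KO libraries 1, 2 and 3, the order in which values are given throughout. WT 2 was the highest library and KO 2 the lowest, and the groups overlapped. Upk1b, a tetraspanin of the uroplakin family, had 6.87, 13.2 and 6.09 FPKM in the WT libraries and 10.2, 4.1 and 9.06 FPKM in the KO libraries. Its highest and lowest libraries were the same as those of Upk3b. The FPKM of Upk3b varied 3.59-fold between libraries and that of Upk1b 3.22-fold, while the ratio of Upk3b to Upk1b stayed between 2.35 in KO 3 and 2.96 in WT 2. Within that range it was 2.92, 2.96 and 2.78 in WT and 2.59, 2.65 and 2.35 in KO, without overlap. On the log2 scale 22.9% of all pairs of tested genes had no overlap, and the difference in this ratio was not tested. The log2 difference, KO minus WT, was -0.35 for Upk3b (95% interval -1.30 to 0.59, limma adjusted p = 0.708) and -0.15 for Upk1b (interval -1.04 to 0.74, adjusted p = 0.869). Upk3b lies on chromosome 5, plus strand, from 136038496 to 136046487, and Upk1b on chromosome 16, minus strand, from 38773184 to 38800328, in GRCm38.

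Msln had 7.37, 12.5 and 7.2 FPKM in the WT libraries and 16.1, 6.07 and 11.1 FPKM in the KO libraries. Here KO 1 was the highest library, above WT 2, and KO 2 was again the lowest. The group means were 9.02 ± 3.02 FPKM in WT and 11.1 ± 5.02 FPKM in KO (SD, n = 3 each), a log2 difference of 0.22 (95% interval -0.61 to 1.05, limma adjusted p = 0.792), within the spread between replicates. Without KO 1 the difference was -0.08, so its direction rests on that library. Muc16, the mucin that binds mesothelin, had 1.49, 3.1 and 2.13 FPKM in WT and 3.02, 1.09 and 1.39 FPKM in KO. WT 2 and KO 1 stood above the other 4 libraries, as they did for Msln. Its log2 difference was -0.22 (interval -0.94 to 0.49, adjusted p = 0.753), and -0.51 without KO 1. The longest GENCODE transcript of Muc16 has 25437 nt, others are far shorter, and the length behind its FPKM is not given in the sources used here. Msln lies on chromosome 17, minus strand, from 25748613 to 25754378, and Muc16 on chromosome 9, minus strand, from 18495455 to 18674530. The neighbour of Msln, the related gene Mslnl, lies on the plus strand from 25736042 to 25748330. The 2 genes run towards each other, with 282 bases between their ends and their starts at the far sides. Mslnl had at most 0.061 FPKM in any library.

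**Figure D1:**
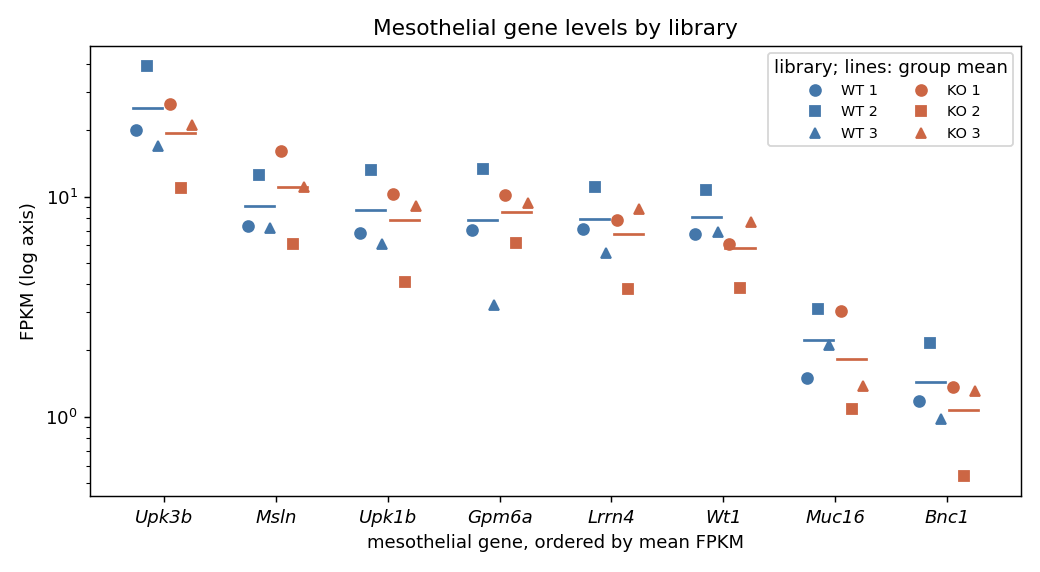
FPKM of the 8 mesothelial genes in each library, on a log axis, with genes ordered by their mean. Blue marks are WT and orange marks KO libraries, and lines are group means (n = 3 each). For every gene the groups overlap, and the square of WT 2 is at or near the top while the square of KO 2 is at or near the bottom.

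Of the transcription factors, Wt1 had 6.75, 10.7 and 6.89 FPKM in the WT libraries and 6.11, 3.84 and 7.65 FPKM in the KO libraries. WT 2 was highest and KO 2 lowest, and KO 3 lay above WT 1 and WT 3. Its log2 difference of -0.42 (95% interval -1.03 to 0.19, limma adjusted p = 0.509) was the largest of the 8 in size, and it stayed below 0 in each of 16 alternative settings, from -0.61 to -0.19, without passing the threshold in any. Bnc1, which encodes the zinc finger protein basonuclin, had the lowest level, with 1.18, 2.15 and 0.975 FPKM in WT and 1.37, 0.539 and 1.31 FPKM in KO. Again WT 2 was highest and KO 2 lowest. Its log2 difference was -0.23 (interval -0.85 to 0.39, adjusted p = 0.713), and -0.03 without KO 2. The log2(FPKM + 1) scale understates the change of a gene this low. Wt1 lies on chromosome 2, plus strand, from 105126529 to 105173616, and Bnc1 on chromosome 7, minus strand, from 81966672 to 81992292.

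Lrrn4 and Gpm6a encode membrane proteins best known from neurons. Lrrn4, a leucine-rich repeat protein, had 7.16, 11 and 5.57 FPKM in WT and 7.79, 3.8 and 8.75 FPKM in KO. WT 2 was highest and KO 2 lowest. Its log2 difference was -0.22 (95% interval -0.99 to 0.56, limma adjusted p = 0.782). Gpm6a, a proteolipid family glycoprotein, had 7.06, 13.3 and 3.21 FPKM in WT and 10.2, 6.14 and 9.32 FPKM in KO. It was the 1 gene of the 8 with its lowest value in WT 3 and not in KO 2. Its log2 difference was 0.26 (interval -0.76 to 1.28, adjusted p = 0.805), and without WT 3 it was -0.20. Lrrn4 lies on chromosome 2, minus strand, from 132868305 to 132880891, and Gpm6a on chromosome 8, plus strand, from 54954843 to 55060871.

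No member passed the adjusted threshold between the groups, and none had an unadjusted p under 0.05, which 13.6% of all 12539 tested genes had. Over all tested genes limma called 0% at the adjusted threshold, and the smallest adjusted p was 0.223. Without WT 1 it called 482 genes, 0 of them members. In none of the 8 genes were the groups free of overlap, against 22.2% of tested genes. Without KO 1 the count was 1, Muc16, and without KO 3 it was 1, Wt1. Of the 8, 6 had lower and 2 higher means in KO on the log2 scale, with a median of -0.22, beside 59.2% lower, 40.8% higher and a median of -0.05 over all tested genes. The count of members with higher means was 4 without WT 2, 5 without KO 2 and 1 without WT 3 or without KO 1. Upk1b and Lrrn4 turned to positive differences both without WT 2 and without KO 2, and Upk3b was at 8.6e-05 without KO 2. The median of the 8 was 0.01 without WT 2, 0.05 without KO 2 and 0.0023 with sample weights. Exact two-sided permutation tests on FPKM gave p from 0.4 for Wt1 to 1 for Gpm6a, where the smallest p that 3 against 3 allows is 0.1. The intervals reach from -1.30 to 1.28, so differences of about 2-fold in either direction lie within some of them, and the test does not show equal levels. In bulk tissue, fewer mesothelial cells and less RNA per cell cannot be told apart.

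**Figure D2:**
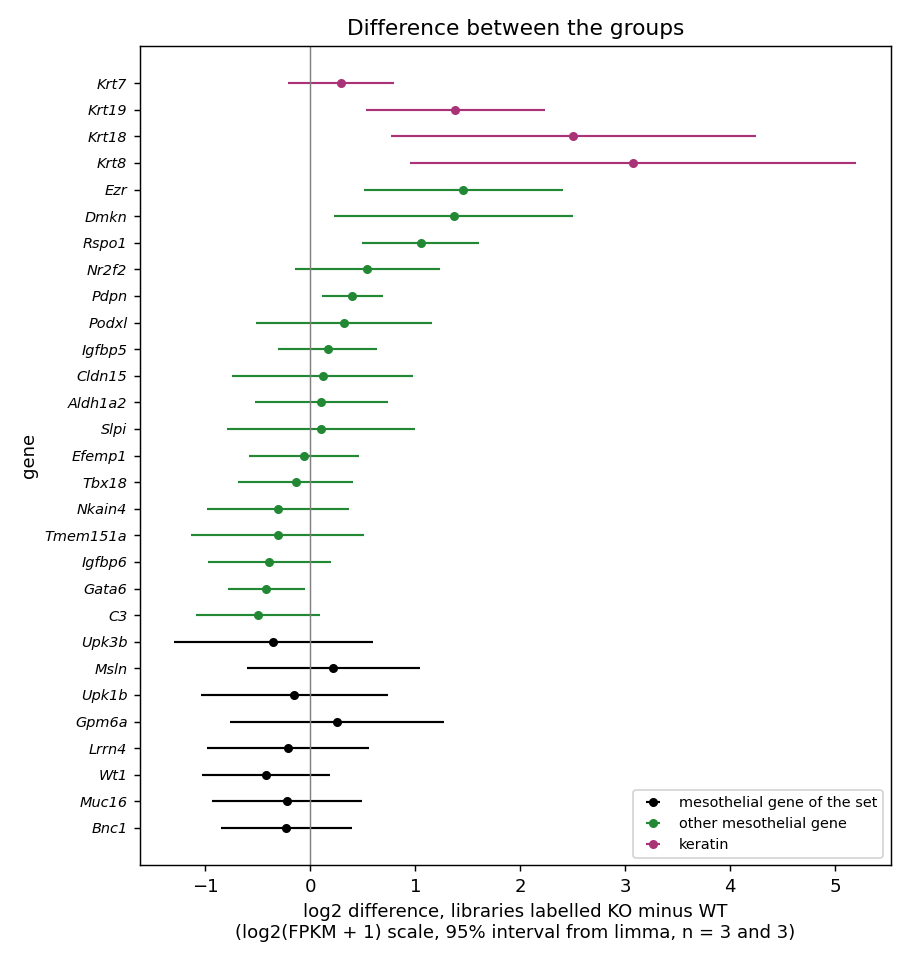
Log2 difference, KO minus WT, with its 95% interval from limma (n = 3 and 3) for the 8 mesothelial genes (black), 17 other mesothelial genes (green) and 4 keratins (purple). All 8 black intervals cross 0. Those of Krt8, Krt18 and Krt19 and, among the green, of Rspo1, Pdpn, Ezr and Dmkn lie above it, and that of Gata6 lies below. No gene passed the adjusted threshold.

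The order of the mean FPKM, a level per length, was Upk3b, Msln, Upk1b, Gpm6a, Lrrn4, Wt1, Muc16 and Bnc1, where the place of Muc16 depends on the transcript length that was used. Over the 6 libraries Upk3b averaged 22.4 ± 9.62 FPKM (SD) and exceeded Msln, at 10.1 ± 3.87 FPKM, in 6 of 6 libraries. The next 4 were close. Upk1b averaged 8.26 FPKM, Gpm6a 8.21, Lrrn4 7.35 and Wt1 6.99 FPKM, and no step between neighbours held in all 6 libraries, nor did that from Msln to Upk1b (5 of 6). Muc16, at 2.04 FPKM, lay below Wt1 and above Bnc1, at 1.25 FPKM, in 6 of 6 libraries.

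What the 8 genes shared was the library in which each stood high or low. In 7 of 8 the highest library was WT 2, as in 19.6% of tested genes, and in 7 of 8 the lowest was KO 2, as in 19.5%. Both held for 6 of 8, as in 3.67% of tested genes. The mean deviation of the 8 genes from their own means was 0.61 on the log2 scale in WT 2 and -0.62 in KO 2, and in WT 2 it was 8 of 8 genes, in KO 2 0 of 8, that lay above their mean. KO 1 had 0.29 and KO 3 0.11, each with 7 of 8 genes above the mean. WT 1 had -0.11 and WT 3 -0.29, each with 2 of 8 above. The highest and the lowest library of the set thus came from different groups, and each group held libraries on both sides of the mean. Summed over the 8 genes, the level was 58, 105 and 49 FPKM in the WT libraries and 81.3, 36.5 and 69.8 FPKM in the KO libraries. Genes of 1 tissue layer in the same 6 libraries are not independent of each other.

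**Figure D3:**
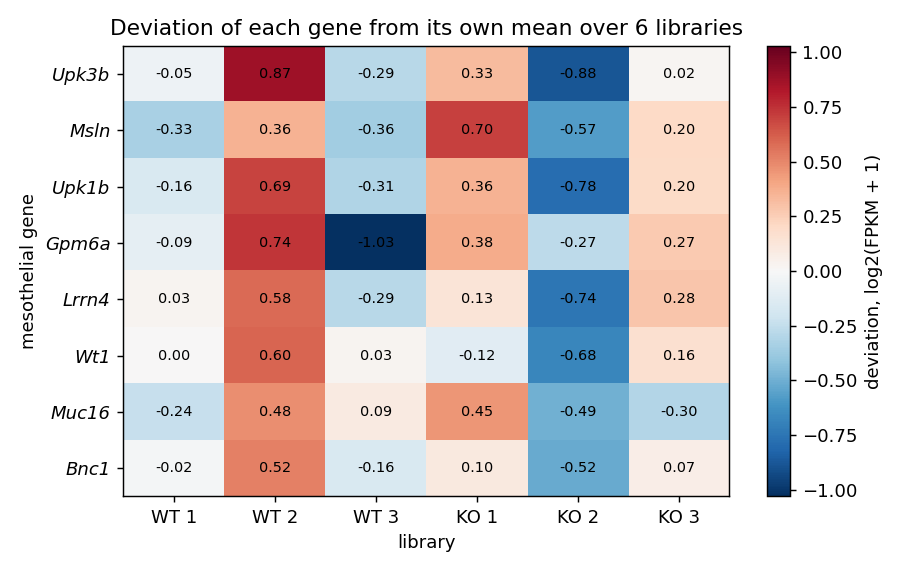
Deviation of each mesothelial gene from its own mean over the 6 libraries, in log2(FPKM + 1), with genes in rows and libraries in columns. The WT 2 column is above 0 and the KO 2 column below 0 for all 8 genes, and the lowest single value is that of Gpm6a in WT 3, at -1.03.

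The spread within the groups was wide for these genes. The residual SD within groups was between 0.35 for Bnc1 and 0.67 for Gpm6a on the log2 scale, with a median of 0.52, where the median over all tested genes was 0.20. The log2(FPKM + 1) scale compresses the spread of low genes such as Bnc1 and Muc16. In FPKM over all 6 libraries Bnc1 varied 3.99-fold, second to Gpm6a at 4.15-fold, and Wt1 2.79-fold. Of all tested genes 3.93% had a residual SD at least as large as that of Upk3b, 6.01% as that of Msln and 14.9% as that of Wt1.

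Epithelial and germ cell markers did not have the mesothelial order of libraries. The 10 epithelial genes fixed with Epcam first summed to 38.3, 2.15 and 1.13 FPKM in the WT libraries and to 84.1, 95.4 and 44.7 FPKM in the KO libraries. The library with the highest mesothelial sum, WT 2, thus had Epcam at 0.199 FPKM and Cdh1, which encodes E-cadherin, at 0.075 FPKM. The library with the lowest mesothelial sum, KO 2, had the highest epithelial sum. Rab25, the epithelial gene with the smallest p, was listed at 0 in WT 2. Among multiciliated cell genes Foxj1 had 0.034 FPKM in WT 2 and 43.2 FPKM in KO 2. The 6 male germ cell genes summed to 102 FPKM in WT 1 and 86.3 FPKM in KO 2, and to between 1.63 and 12.2 FPKM in the other 4 libraries. Prm1, a sperm protamine, had 39.2 FPKM in WT 1 and 33.3 FPKM in KO 2. The part of this RNA in the mesothelial levels was not tested.

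**Figure D4:**
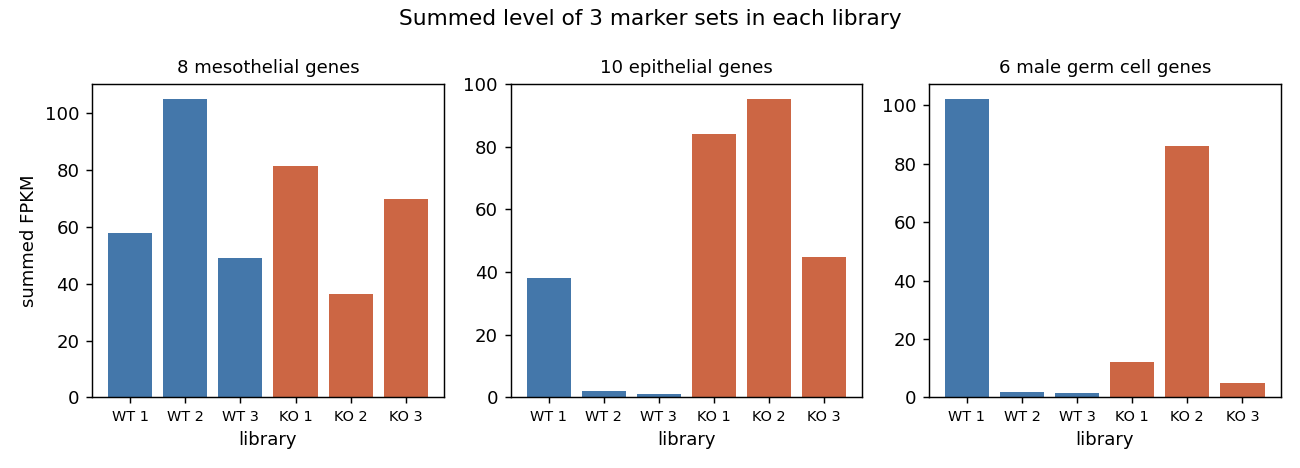
Summed FPKM of the 8 mesothelial, 10 epithelial and 6 male germ cell genes in each library (blue WT, orange KO, 1 bar per library, no error bars). The mesothelial sum is highest in WT 2, at 105 FPKM, where the epithelial sum is 2.15 FPKM, and lowest in KO 2, where the epithelial sum is highest.

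Other sources of the member genes were looked for by their own markers. Of 5 urothelial markers, Upk2 and Krt5 were listed at 0 in all 6 libraries, Upk3a averaged 0.0203 FPKM and Upk1a 0.318 FPKM, and 1 gene, Trp63 at 1.51 FPKM, was tested. Of 7 neural and glial markers 3 were tested. The neuronal genes Snap25 and Tubb3 averaged 0.109 and 0.376 FPKM, beside 8.21 FPKM of Gpm6a, and Stmn2 averaged 3.14 FPKM. All 3 tested members of that list were highest in WT 2, and its sum was 13.6 FPKM there against 5.97 to 7.84 FPKM in the other 5 libraries. Their part in the high values of WT 2 was not tested. Of 6 Sertoli and gonadal markers, Amh averaged 0.154 FPKM and the supporting cell factor Sox9, which other epithelia also make, 5.89 FPKM. Sox9 was lowest in WT 2, at 0.873 FPKM, where Wt1 was highest, while Dhh and Star of the same list were highest there, at 2.74 and 1.75 FPKM, and their part in the level of Wt1 was not tested.

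Beyond the set, 20 further genes known from mesothelium were listed and 17 passed the filter. Calb2, which encodes calretinin, was listed at 0 in every library. Of the 17, 10 had higher and 7 lower values in KO, with a median of 0.11, and 0 passed the adjusted threshold. Without WT 3, 6 of the 17 were higher. At an unadjusted p under 0.05 there were 4 higher and 1 lower, beside 9.13% of tested genes higher and 4.43% lower. Rspo1, a secreted amplifier of Wnt signals, had 14.6, 12.7 and 8.97 FPKM in WT and 33.8, 24.8 and 20 FPKM in KO, a log2 difference of 1.05 with a standard error of 0.24 (limma adjusted p = 0.223), without overlap. Pdpn, which encodes podoplanin, had 9.54, 11.2 and 8.73 FPKM in WT and 14.2, 13 and 12.5 FPKM in KO, a log2 difference of 0.40 with a standard error of 0.12. Ezr, a linker of membrane and actin, and Dmkn, an epithelial secreted protein, had log2 differences of 1.46 and 1.37. Rspo1, Pdpn, Ezr and Dmkn had their highest values in KO 1 and KO 2 and their lowest in WT 3, and the epithelial sum was also high in KO 1 and KO 2 and lowest in WT 3. The part of other epithelia in these 4 differences was not tested. The gene with a lower value was Gata6, a transcription factor of mesothelium and of peritoneal macrophages, named after its value was seen, with a log2 difference of -0.42.

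The 3 further mesothelial genes with the highest means are also made by other cells of fat. C3, the complement component, averaged 272 FPKM, Igfbp6, a binder of insulin-like growth factors, 131 FPKM, and Efemp1, a fibulin, 101 FPKM. Their log2 differences were -0.50, -0.39 and -0.06, with limma adjusted p of 0.436, 0.521 and 0.911. In WT 2 the highest value was found for 10 of the 17 genes, in KO 2 the lowest for 5, and both held for 4. Their mean deviation was 0.23 in WT 2, 0.23 in KO 1 and -0.05 in KO 2 on the log2 scale, and it was lowest in WT 3, at -0.52. The low KO 2 values were thus less marked here than in the 8 members, where the mean was -0.62, a difference that was not tested.

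The keratins, which mesothelium shares with other simple epithelia, did not have the library order of the set. Krt8 had 20.4, 1.63 and 0.828 FPKM in WT and 48, 51.3 and 23.2 FPKM in KO, and Krt18 had 14.6, 2.07 and 1.01 FPKM in WT and 30.6, 31.6 and 16.1 FPKM in KO. Both were low in the libraries where Epcam was near 0 and highest in KO 2, where 7 of the 8 mesothelial genes were lowest. Krt19 kept 11.1 and 5.71 FPKM in WT 2 and WT 3, beside 15.3 FPKM in WT 1 and 34.7, 31.7 and 19 FPKM in KO. Krt7 averaged 1.06 FPKM and was highest in KO 1, like Msln, at 1.89 FPKM. Log2 differences were 3.08, 2.51, 1.38 and 0.29 for Krt8, Krt18, Krt19 and Krt7, with limma adjusted p of 0.223, 0.224, 0.223 and 0.570.

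The levels of each member relative to the other 7 set aside what all 8 shared. The ratio of Msln to Upk3b was 0.367, 0.320 and 0.425 in the WT libraries and 0.608, 0.558 and 0.522 in the KO libraries. All 3 KO libraries were above all 3 WT libraries. Relative to the mean of the other 7 genes, Msln stood at 0.38, 0.35 and 0.55 on the log2 scale in WT and at 1.10, 0.68 and 0.73 in KO, a difference of 0.41. It was the 1 member of 8 whose relative level did not overlap between the groups. A share over all tested genes was not computed for such relative levels. For genes' own levels, which are a different measure, 22.2% of tested genes did not overlap. Of the 28 pairs of members 7 had ratios without overlap, 5 of them with Msln, while over all pairs of tested genes the share was 22.9%, so the count over the 28 pairs is near the background. The relative level of Msln was looked at after the values were seen and was not tested. The difference ran from 0.28 without KO 1 to 0.51 with quantile normalization.

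**Figure D5:**
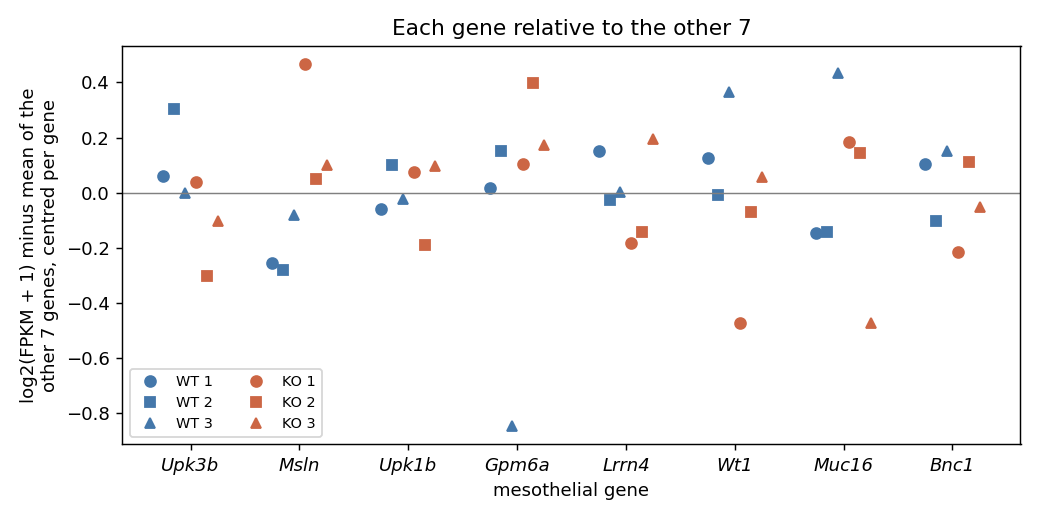
Level of each mesothelial gene minus the mean of the other 7, in log2(FPKM + 1), centred per gene, with 1 point per library (blue WT, orange KO). For Msln the 3 KO points lie above the 3 WT points, for the other 7 genes the groups overlap, and Gpm6a in WT 3 lies farthest from 0.

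The genes most like each member over the 6 libraries were found by the root mean square distance between log2 deviations, among genes with a range at least 0.5 times that of the member. The gene nearest to Upk3b was Upk1b and the reverse, at a distance of 0.12 where Upk3b itself had a range of 1.75. The next for both included the Wnt ligand Wnt2b, at 0.17 and 0.12. Cytl1 was near Upk3b at 0.16 and Adcy5, an adenylyl cyclase, near Upk1b at 0.13. Lrrn4 was nearest to Nkain4, a sodium pump interacting protein from the list of further mesothelial genes, at 0.10, then to the clock repressor Nr1d1 and to Upk1b. Bnc1 was nearest to the transcription factor Mitf, then to P3h4 and Nkain4, at 0.09 to 0.10. Wt1 was nearest to Igfbp6 at 0.06, then to Socs3 and Gfod2 at 0.09. Msln was farther from any gene, with Cachd1, Adcy5 and Colec11 at 0.19 to 0.20, and so was Muc16, with Colec11, P3h4 and Lrrn4cl at 0.17 to 0.18. Gpm6a was nearest to Tpm2, a muscle tropomyosin, at 0.15, then to Podxl and Caskin2, and none of its 50 nearest genes was a member, against 6 for Upk3b. Of the 18 different genes so named 2 were members, Upk3b and Upk1b.

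Beside these, markers of the other cells of the fat pad are given for comparison. All 5 adipocyte genes, led by Adipoq and Plin1, had lower means in KO (median -0.49), beside 59.2% of tested genes, 1 of them, Cidec, at an unadjusted p under 0.05. In 3 of the 5 the groups did not overlap, beside 22.2% of tested genes. Adipoq had 5889 FPKM in WT 3 against 2792 and 2844 in WT 1 and WT 2, and Fabp4 23451 against 12500 and 12060. WT 3 was the library that differed by transcript length, and its part in these differences was not tested. The 5 adipose progenitor genes, led by Pdgfra and Dpp4, had a median of 0.01, and all 4 peritoneal macrophage genes, led by Timd4 and Icam2, were lower with a median of -0.21. The stroma of fat-associated lymphoid clusters, which lie beneath the mesothelium, was represented by 4 tested genes, 2 higher and 2 lower (median -0.18). Both lower genes had an unadjusted p under 0.05 by limma, beside 4.43% of tested genes lower at that threshold. Cxcl13, a B cell attractant, had 6.62, 8.41 and 15.5 FPKM in WT and 2.16, 1.6 and 1.46 FPKM in KO. Its log2 difference was -1.96 with an adjusted p of 0.223 by limma, and Il33 had a difference of 0.17. Of 9 tested genes of the change from mesothelial to mesenchymal state 5 were higher and 4 lower (median 0.06), with Snai1 and Snai2, its transcription factors, at 0.31 and 0.23 and 0 genes at an unadjusted p under 0.05. In 4 of the 9 the highest value was that of WT 2, in 1 the lowest was that of KO 2, and both held for 0. The shares over all tested genes were 19.6%, 19.5% and 3.67%. Bulk tissue does not tell which cells made the RNA of these 9 genes, so their count does not describe the mesothelium alone. Vim of that list averaged 621 FPKM, beside 22.4 FPKM of Upk3b, the highest member.

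Promoter sequence was searched for motifs chosen together with the gene lists. The part of such motifs in the library order shared by 6 of the 8 genes was not tested. RefSeq windows on GRCm38.p6, from 250 bases before to 50 after the start, matched 5 of the 8 genes, Upk3b, Lrrn4, Bnc1, Muc16 and Gpm6a, the last with 2 starts. The motif CATTCC of the TEAD factors, read on both strands, was in 3 of these 6 windows, one each of Upk3b, Lrrn4 and Gpm6a, and in 14.7% of all 32851 windows. The motif GCGTGGG of the WT1 and EGR family, in 5.04% of all windows, and AGATAA of the GATA factors, in 11.2%, were in 0 of the 6, which says only that these letters are not there. The searched motifs do not overlap each other in the 3 windows shown, and a match is a description of letters, not a binding site. The 250 bases before the start are printed 5′ to 3′ on the gene's strand, with the TEAD match in capitals (CATTCC, or GGAATG where it lies on the other strand).
Upk3b, chr5:136038246-136038495, plus strand: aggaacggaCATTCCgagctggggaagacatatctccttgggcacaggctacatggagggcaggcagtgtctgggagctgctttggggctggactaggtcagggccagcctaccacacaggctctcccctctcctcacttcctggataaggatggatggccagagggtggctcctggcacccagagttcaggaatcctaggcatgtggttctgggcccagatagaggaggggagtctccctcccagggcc
Lrrn4, chr2:132880863-132881112, minus strand: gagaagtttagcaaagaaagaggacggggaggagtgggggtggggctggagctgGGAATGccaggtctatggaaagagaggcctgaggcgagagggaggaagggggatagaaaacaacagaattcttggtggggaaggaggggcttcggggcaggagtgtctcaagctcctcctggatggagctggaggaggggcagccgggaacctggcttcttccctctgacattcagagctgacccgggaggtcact
Gpm6a, chr8:54779184-54779433, plus strand: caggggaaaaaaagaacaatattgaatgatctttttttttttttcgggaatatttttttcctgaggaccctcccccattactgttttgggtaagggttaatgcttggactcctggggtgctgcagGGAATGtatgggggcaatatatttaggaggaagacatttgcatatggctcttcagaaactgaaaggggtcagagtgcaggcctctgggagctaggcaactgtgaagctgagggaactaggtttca
The match begins 241 bases before the start in Upk3b, 196 in Lrrn4 and 125 in Gpm6a. The Gpm6a start shown is a RefSeq start far upstream of the GENCODE start given above, and the window beside the GENCODE start held no match. Upk3b and Lrrn4 had their highest level in WT 2 and lowest in KO 2. So did Bnc1 and Muc16, whose windows hold no match. Gpm6a, which has a match, was highest in WT 2 but lowest in WT 3.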

How the data were processed

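RNA-seq of 6 libraries, 3 labelled WT and 3 KO, was used as deposited. Per the labels' protocols, libraries were prepared from TRIzol RNA by a strand-keeping mRNA kit. Per the submitters' processing notes, the tools were Cufflinks, Cuffdiff 2.2.1 and STAR 2.5.4 and the build mm10 (GRCm38). Annotation and scaling: not given in the sources used here. The authors deposited 1 column of values per library, read here as FPKM because of these tools and because the values are not whole; no header names the unit. Where a symbol came more than once, its highest row on average was kept (24 of 21853 rows dropped).

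Genes averaging at least 1 FPKM (12539) were put on the log2(FPKM + 1) scale and tested in R 4.3.3 with limma 3.58.1 (group only, mean-variance trend, Benjamini-Hochberg adjusted p under 0.05). Exact permutation tests used scipy 1.17.1. Positions, lengths and GC came from GENCODE on GRCm38, with a length for all 12539 genes. Low values put the depth of KO 2 at 0.651 times that of WT 1, the lowest estimate (the others from 0.79 to 1.03). These estimates are rough. They rest on 15.1% to 21.8% of the low genes compared, and for WT 3, at 1.03, on only 11.2%. Counting intervals cannot be given without a total depth. The fit was tested on simulated data for KO minus WT over 12539 genes. There it recovered 60% of 50 genes changed by 1 on the log2 scale and 92% of 50 changed by 2, with 9 false calls. The changed genes were drawn from all tested genes, with noise independent between genes. The median residual SD was 0.20 over all tested genes and 0.52 in the members, so these shares do not give the recovery for the members.

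The members and lists were chosen with earlier results of these data known. Named genes were the 8 members, the 4 further mesothelial genes with the smallest p and the 3 with the highest mean, the keratins, the first 2 of every other list with its smallest p, Zfp251, and the 3 genes most like each member. Alternatives were pseudocounts of 0.1 and 0.5, quantile normalization, median-ratio scaling, no filter, a minimum mean of 5 FPKM, sample weights, no trend, a length and GC correction, the replicate number as a block and each library left out.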

Additional observations from a re-analysis of the deposited data

How the results depend on the processing

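No member passed limma's adjusted threshold in any setting; the lowest adjusted p among the 8 over the alternatives was 0.309, for Msln. The count of genes past the threshold was 0 except for 970 with sample weights (511 higher) and 482 without WT 1 (469 higher), so with a library left out it ran from 0 to 482. With sample weights these held 0 members, 3 further mesothelial genes and 1 keratin, and without WT 1 0 members and 2 keratins. The number of members with higher values was 2 of 8, 4 with sample weights and from 1 to 5 with a library left out (4 without WT 2, 1 without WT 3 or KO 1, 5 without KO 2). Of the further mesothelial genes 10 of 17 were higher, with a range of 6 to 11 when a library was left out (6 without WT 3). The groups did not overlap in 0 members, and in 0 to 1 with a library left out (Muc16 without KO 1, Wt1 without KO 3).

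With sample weights the log2 difference was 0.091 for Upk1b, 0.24 for Muc16 and 0.34 for Efemp1, each reversed. Quantile normalization gave -0.10 for Krt7 and 0.16 for Efemp1, and the length and GC correction 0.039 for Efemp1. With a library left out the ranges were -0.076 to 0.56 for Msln, -0.60 to 8.6e-05 for Upk3b, -0.37 to 0.20 for Upk1b, -0.41 to 0.10 for Lrrn4, -0.20 to 0.69 for Gpm6a, -0.51 to -0.03 for Muc16, -0.37 to -0.03 for Bnc1, -0.61 to -0.19 for Wt1, -0.27 to 0.072 for Efemp1, -0.56 to -0.16 for Igfbp6 and 0.84 to 1.75 for Dmkn. The median of the 8 members, -0.22, was 0.0023 with sample weights and ran from -0.35 to 0.051 with a library left out. The causes were not tested. The number of member pairs without overlap ran from 7 to 13 of 28 with a library left out (11 without WT 2, 13 without KO 3).

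The labels' numbers showed no clear pairing of the libraries. Deviations from the group means correlated across genes with r = 0.23, -0.20 and 0.22 for numbers 1, 2 and 3. Between WT and KO libraries of different numbers r ran from -0.48 to 0.43. With the replicate block 0 genes passed, 2 of 8 members were higher, and the adjusted p of the members was between 0.578 and 0.903. The limma adjusted p of Krt8, Krt18, Krt19 and Krt7 was then 0.089, 0.088, 0.088 and 0.627, beside 0.223, 0.224, 0.223 and 0.570 without the block. The lowest member value was 0.539 FPKM, of Bnc1 in KO 2, and its counting error is unknown.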
